A study of Mus musculus with 6 samples.

Results

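The hepatocyte nuclei described here were taken from the middle of a zonation index, which places each nucleus between the portal and the central end of the liver lobule. They number 783 of the 1567 hepatocyte nuclei in the series. For each nucleus the index was the reads of 6 genes known from the central vein side (Cyp2e1, Glul, Oat, Slc1a2, Gulo and Cyp1a2) divided by those reads plus the reads of 6 genes known from the portal side (Cyp2f2, Hal, Sds, Pck1, Gls2 and Hsd17b13). Oat had no read in any nucleus, so 5 of the central vein genes set the index. Nuclei were ranked by the index within each library, and the 783 members were chosen by these reads, as the nuclei that rank above the lowest 25% and below the highest 25%. They are called middle-index nuclei here, and the 391 nuclei below them and the 393 above them are called low-index and high-index nuclei. The index was measured on the same nuclei, so its 12 genes were left out of every test, and differences in level between the middle and the ends are given as descriptions without a test.

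The series follows maternal liver through gestation and lactation in female wild-type C57BL/6J mice mated at about 8 weeks of age. The stages are G0 and G14.5, which carry the day of gestation in their names, and P7L, day 7 after birth in lactating mothers. At each stage there was 1 library from liver tissue and 1 from a perfused liver, 6 libraries in all, made by Smart-seq3xpress, a plate-based full-length single-cell RNA method. The labels name no animal and do not say whether the 2 libraries of a stage came from different mice, so each p-value measures only the spread between libraries, which may be technical. Throughout, a pair of values for a stage gives the liver tissue library first and the perfusion library second.

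The liver lobule is a plate of hepatocytes between a portal triad and a central vein. Blood enters at the portal side, and enzymes of the urea cycle and gluconeogenesis are known to be high there, while enzymes of bile acid synthesis, glutamine synthesis and drug metabolism are known to be high near the central vein under Wnt signalling. Midlobular hepatocytes, between these ends, are known in mice for hepcidin and for the insulin-like growth factor binding protein Igfbp2, and as a source of new hepatocytes in homeostasis. Hepcidin, the product of Hamp, is the liver hormone that binds the iron exporter ferroportin and so limits the release of iron into blood. Its transcription is known to be driven by bone morphogenetic protein (BMP) ligands acting through SMAD proteins and by interleukin 6 acting through STAT3. Mice carry a duplicate, Hamp2, and both genes lie on the minus strand of chromosome 7 in GRCm38. In GENCODE M21 Hamp spans positions 30942368 to 30944032 and Hamp2 30922372 to 30924681.

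The promoters of the pair are shown because the genes differed in their course over the stages and because the elements for both known inputs can be read in them. Each sequence runs from 250 bases before to 50 bases after the annotated start (RefSeq, GRCm38.p6, minus strand, chr7:30943980-30944279 for Hamp and chr7:30924132-30924431 for Hamp2). The Hamp2 stretch lies inside the gene span given above, so RefSeq and GENCODE place the start of Hamp2 differently, and the comparison rests on the RefSeq start. Capitals mark exact matches to the BMP-responsive element GGCGCC and to the STAT element TTCNNNGAA, searched on both strands.
Hamp: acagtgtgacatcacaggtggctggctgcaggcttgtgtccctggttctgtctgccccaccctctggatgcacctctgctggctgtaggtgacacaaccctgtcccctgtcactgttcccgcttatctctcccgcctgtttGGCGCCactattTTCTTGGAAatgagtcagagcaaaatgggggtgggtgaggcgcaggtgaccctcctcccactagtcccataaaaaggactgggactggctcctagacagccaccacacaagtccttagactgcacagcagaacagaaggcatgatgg
Hamp2: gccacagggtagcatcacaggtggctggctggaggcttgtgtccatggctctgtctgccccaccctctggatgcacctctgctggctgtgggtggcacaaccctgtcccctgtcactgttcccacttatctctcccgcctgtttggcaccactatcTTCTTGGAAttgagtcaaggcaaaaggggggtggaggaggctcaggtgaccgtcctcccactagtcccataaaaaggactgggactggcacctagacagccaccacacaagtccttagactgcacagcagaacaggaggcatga
In Hamp the BMP element lay at positions -109 to -104 and the STAT element at -97 to -89 relative to the start. Hamp2 had the same STAT letters at -94 to -86, and its aligned BMP element carried G4A, counted from 1 at the 5′ end of the element with the Hamp base first. Over 297 aligned bases, 276 (92.9%) were identical. Of 32851 RefSeq mouse promoters of this length, 11.9% held GGCGCC, 8.3% held TTCNNNGAA and 0.645% held both. A match describes letters and does not show that a factor bound there. Reads from such similar genes can be hard to assign, and both genes are overlapped on the other strand by the annotated gene Gm44662 while the use of strand in counting is not given in the sources used here, so the levels of Hamp and Hamp2 carry that uncertainty.

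By library, the middle-index nuclei numbered 126 and 92 (G0), 112 and 150 (G14.5) and 154 and 149 (P7L). Their reads summed to between 105544958 and 171632405 per library, with 28679 to 3747490 reads per nucleus and a median of 901536. Since the ranks are set within each library, the index itself was not the same in every middle. Its median was 0.498 and 0.502 (G0), 0.466 and 0.218 (G14.5) and 0.337 and 0.0915 (P7L), so the middle of the perfusion libraries at G14.5 and P7L held more portal-side reads than the others, and its part in the stage comparisons was not tested. At the lower limit the members just inside had an index between 0.031 and 0.11 and the nuclei just outside between 0.0294 and 0.108 over the 6 libraries. At the upper limit the members just inside had between 0.528 and 0.874 and the nuclei just outside between 0.578 and 0.883. Some ranks rest on few reads, with as few as 34 index reads in 1 member.

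The nuclei were hepatocyte nuclei by their markers. The 10 hepatocyte markers, led by Alb or Cps1, summed to 1% or more of the reads in 753 of 783 members. No other marker list passed 1% in any member. Over libraries, the summed level was 6.19 to 23.8 CPM (counts-per-million) for macrophage markers, 12.2 to 59.4 for endothelial, 9.82 to 27.8 for stellate, 1.63 to 5.57 for lymphocyte, 0.0874 to 0.398 for neutrophil and 0.108 to 13.7 for erythroid markers. The cholangiocyte list reached 129 to 218 CPM, nearly all of it from Pkhd1, and its defining keratins Krt19 and Krt7 had no read in at least 1 library each. The lecithin retinol acyltransferase gene Lrat, a stellate marker, and the erythroid gene Alas2 had no read in any of the 6 middle sums. A count of 0 in this table does not show that a transcript was absent, since the transferrin gene Trf, a hepatocyte marker, had no read in 5 of the 6 middle sums and Oat none in all 6. Summed immediate early and heat shock genes, which are known to respond to tissue handling, stood at 60.9 and 96 CPM for G14.5 and at 61.8 and 170 CPM for P7L, against 283 and 477 CPM at G0, so every library of the later stages was below both G0 libraries. Egr1 alone gave 159 and 249 CPM of the G0 sums, and the sums without it were not compared.

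The 3 genes given as markers of midlobular hepatocytes were above both ends of the index in at most 3 of 6 libraries each. Genes were compared along the index by CPM on library sizes scaled by TMM (trimmed mean of M values). The CPM of rank bins, of single nuclei and of summed marker lists were taken on unscaled read totals. Those values are thus not on the same scale as the CPM of the 3 index ranges. Of 14970 genes, 18 (0.12%) were higher in the middle than at both ends in 6 of 6 libraries. Hamp was above both ends in 2 libraries, Hamp2 in 1 and Igfbp2 in 3. In the other libraries they mostly fell along the whole index, Hamp in 3, Hamp2 in 5 and Igfbp2 in 3. The 3 genes thus do not bear out a midlobular label for the middle of this index, and the nuclei are called by their place in it.

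Along 8 rank bins Hamp at P7L held its level through low and middle index and dropped at the high-index end. In the P7L liver tissue library Hamp was at 964.2 CPM in the lowest bin, 1106 in the fourth, 635.7 in the sixth and 79.41 in the highest. The P7L perfusion library had 881.5 CPM in the lowest bin, 783.2 in the fourth, 1000 in the sixth and 69.27 in the highest. At G14.5 Hamp also ended low, with 222.9 and 91.07 CPM in the lowest bin, 384.6 and 243.7 in the fourth and 49.9 and 50.02 in the highest. At G0 Hamp showed no such drop, with 1486 and 2843 CPM in the highest bin. Hamp2 in middle-index nuclei stood between or above its levels at the ends, with 568 and 638 CPM at P7L, against 481 and 642 in low-index and 308 and 242 in high-index nuclei. Igfbp2 at G14.5 had 370 and 327 CPM in middle-index nuclei, against 432 and 406 in low-index and 106 and 119 in high-index nuclei. At P7L Igfbp2 stood above both ends, with 297 and 310 CPM in middle-index nuclei, against 158 and 218 in low-index and 159 and 248 in high-index nuclei. Along the bins of that stage it had 145.8 and 180.8 CPM in the lowest, 365.8 and 459.2 in the sixth and 126.7 and 191.6 in the highest.

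**Figure D1:**
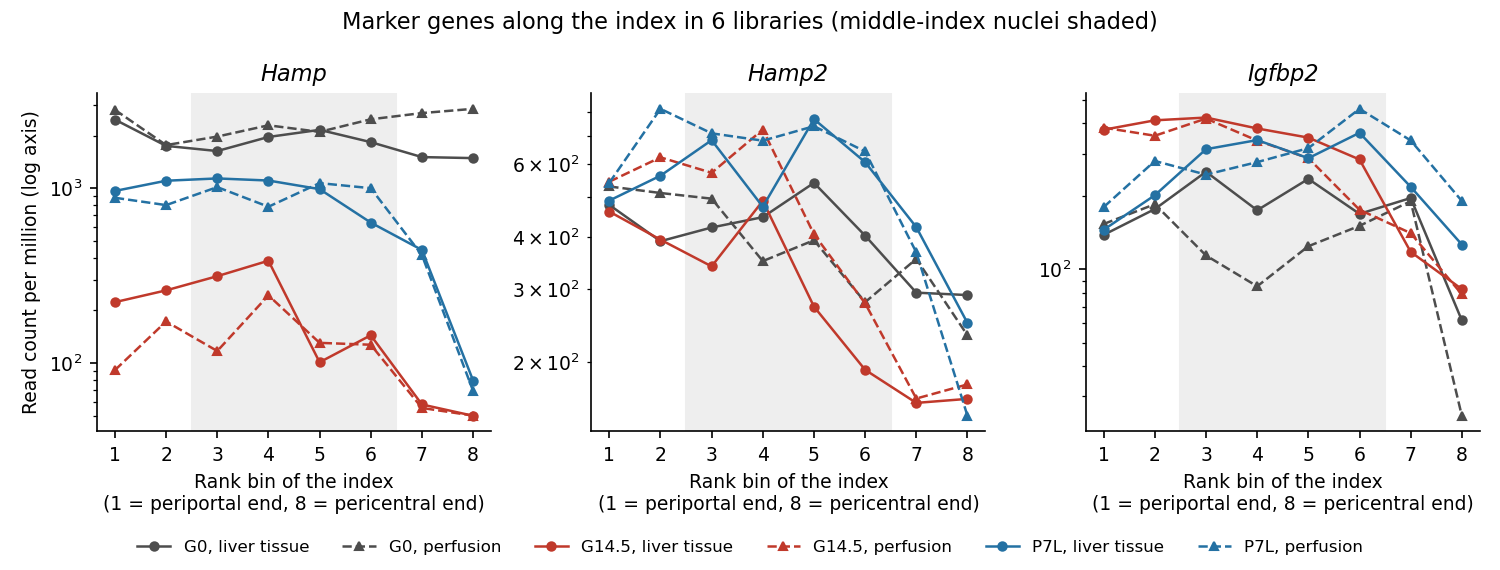
Hamp, Hamp2 and Igfbp2 along the zonation index. Each line is 1 library, the x axis is the rank bin from low to high index, and shading marks the middle-index bins. The y axis is CPM on unscaled read totals, on a log scale. Hamp ended at 79.41 and 69.27 CPM (P7L) and at 49.9 and 50.02 CPM (G14.5) in the highest bin, while both G0 libraries stayed above 1000 CPM there.

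Few genes had their highest level in the middle in 6 of 6 libraries. Among them were Rdh10, a retinol dehydrogenase of retinoic acid synthesis, Rabif, a chaperone of Rab proteins, and Apoa1, the main protein of high-density lipoprotein. Rdh10 had 48.3 and 36.1 CPM (G0), 26.8 and 35.5 (G14.5) and 34 and 35.5 (P7L) in the middle. Its median excess over the higher end was small at 0.258 on the log2 scale, and that of Rabif was 0.219 and that of Apoa1 0.118. A level below both ends in 6 of 6 libraries was found for 14 genes (0.0935%), among them the nuclear pore gene Tpr and the AMP-activated kinase subunit Prkaa2. The genes of both kinds were picked by these same levels. How many genes would reach either pattern without any gradient was not tested, so none is shown to be particular to the middle. Graded genes were more frequent, with 116 (0.775%) rising and 80 (0.534%) falling toward the high-index end in 6 of 6 libraries. Of 20 central vein genes outside the index 13 rose in all libraries, and of 20 portal genes outside the index 6 fell in all.

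Cyp8b1, the sterol hydroxylase that sets the share of cholic acid in bile, was above both ends in 4 libraries, those of G0 and G14.5. At G0 it had 16.1 and 10.7 CPM in middle-index nuclei, against 2.61 and 4.05 in low-index and 5.92 and 0.141 in high-index nuclei. These G0 levels rest on few nuclei, since the median middle-index nucleus had 0 CPM in both G0 libraries and the top 10% of nuclei held 91.6% and 92.4% of the reads. At G14.5 it had 87.3 and 78.4 CPM in the middle, against 51.4 and 42.6 in low-index and 31.5 and 59.4 in high-index nuclei. At P7L it had 78.9 and 76.2 CPM in the middle, against 32.5 and 26.2 in low-index and 84.3 and 91.4 in high-index nuclei. Of the 8 bins at P7L the seventh was the highest, with 122.5 and 129.9 CPM, and the last had 61.31 and 65.45 CPM. The gene spans 121914356 to 121916305 on the minus strand of chromosome 9. Of the other genes known from midlobular hepatocytes, the cyclin gene Ccnd1 was above both ends in 4 libraries and the urinary protein gene Mup3, one of a family of near-identical copies, in 1.

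Hamp was the marker with the largest change between stages. In middle-index nuclei it had 1853 and 2208 CPM (G0), 240 and 169 CPM (G14.5) and 863 and 894 CPM (P7L), and the libraries of the 3 stages did not overlap. It fell at G14.5 against G0 by 3.32 ± 0.21 on the log2 scale (standard error, as after ± for every fold change here; adjusted p = 0.000529, edgeR quasi-likelihood test with Benjamini-Hochberg adjustment). At P7L it was higher than at G14.5 by 2.11 ± 0.20 (adjusted p = 0.00253) but its difference from G0, -1.21 ± 0.20, missed the threshold of 0.05 (adjusted p = 0.0549). The G14.5 against G0 call was made under all 19 alternative settings, with values between -3.67 and -2.99, and the P7L against G0 difference was called in 7 of 19, among them without the G0 liver tissue library or either G14.5 library, with values between -1.44 and -0.96.

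The lower sum at G14.5 came with a change in how Hamp reads were spread over nuclei. The median middle-index nucleus had 1613 and 2191 CPM (G0), 8.41 and 4.74 CPM (G14.5) and 850 and 419 CPM (P7L). The upper quartile at G14.5 was 79.2 and 91.1 CPM, far below the G0 median. At G14.5 the top 10% of nuclei held 76.2% and 74.1% of all Hamp reads, against 33.1% and 25.4% at G0. At P7L they held 33.1% and 42.9%, also against 33.1% and 25.4% at G0. With each nucleus thinned to 250000 reads, a Hamp read was found in 69 of 112 (61.6%) and 98 of 149 (65.8%) nuclei at G14.5, against 100% of nuclei in both G0 libraries. In a sum over nuclei, fewer nuclei with the transcript and less of it per nucleus cannot be told apart, which is why both are given for Hamp. A read in a plate well can also come from free RNA, so a share of nuclei with a read is not a share that transcribes the gene.

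**Figure D2:**
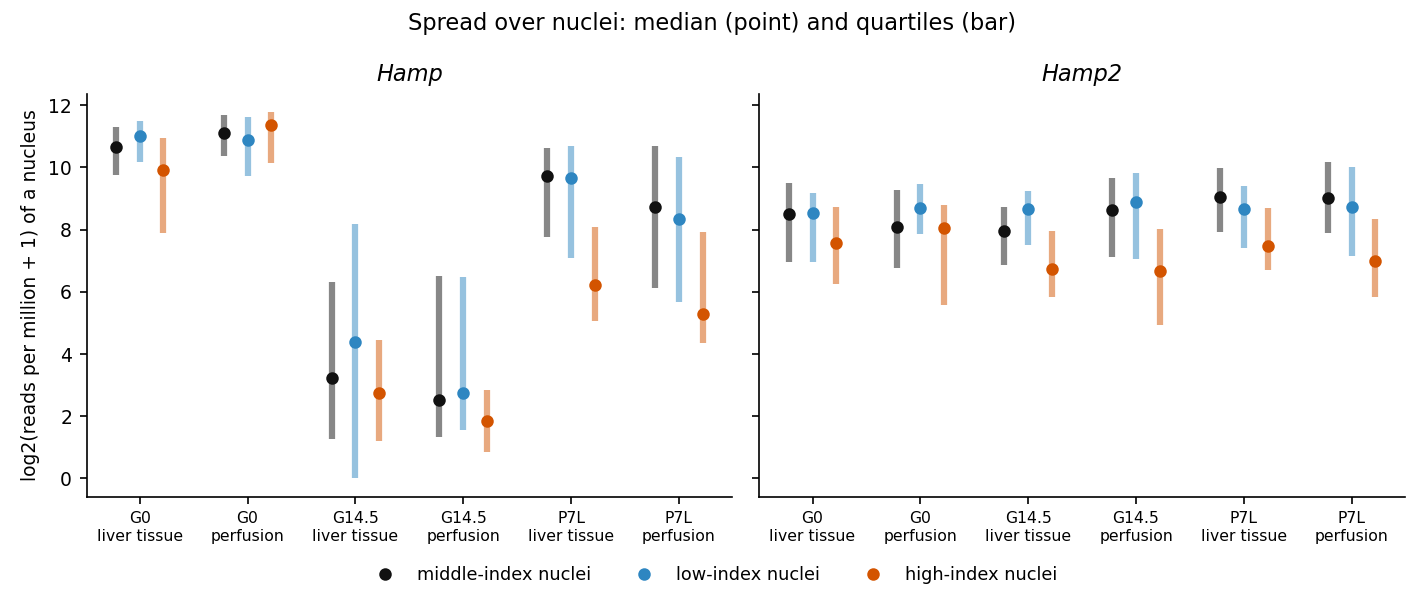
Hamp and Hamp2 per nucleus in each library, for middle-, low- and high-index nuclei. Points are medians over nuclei and bars run from the lower to the upper quartile, as log2(CPM + 1). At G14.5 the Hamp medians in middle-index nuclei were 8.41 and 4.74 CPM, against 1613 and 2191 CPM at G0, while Hamp2 medians stayed between 248 and 530 CPM in all 6 libraries.

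Hamp2 did not show the G14.5 drop of its neighbour. In middle-index nuclei it had 441 and 373 CPM (G0), 332 and 536 (G14.5) and 568 and 638 (P7L), and G14.5 spanned the G0 values. None of the 3 differences was called, with log2 fold changes of 0.06 ± 0.22 for G14.5 against G0 (adjusted p = 0.908), 0.55 ± 0.22 for P7L against G0 (adjusted p = 0.279) and 0.50 ± 0.22 for P7L against G14.5 (adjusted p = 0.307). Per nucleus the Hamp2 medians were 364 and 272 CPM (G0), 248 and 399 (G14.5) and 530 and 515 (P7L). At G14.5 the top 10% of nuclei held 36.1% and 37.2% of Hamp2 reads, against 36.1% and 37.9% at G0. The promoters printed above are the same at the STAT element and differ at the BMP element, which is a description of the sequences only.

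The genes of the BMP and SMAD input to hepcidin were mostly not called. Of 19 tested, 0 were higher and 1 was lower at G14.5 than at G0, a share close to the 4.82% called among all 14974 genes. The gene was Smad7, an inhibitory SMAD that is itself a target of the pathway, with 9.3 and 11.6 CPM at G14.5, against 63.2 and 51.8 CPM at G0 (log2 fold change -2.46 ± 0.31, adjusted p = 0.0073). This call was lost without the G14.5 liver tissue library. At P7L Smad7 had 51.2 and 48.5 CPM, higher than at G14.5 by 2.25 ± 0.31 (adjusted p = 0.0101), a call lost without the G14.5 liver tissue library or either P7L library. In that comparison 1 of the 19 was higher and 1 lower, beside 1.89% higher and 2.5% lower among all genes. The lower gene was Id2, a DNA-binding inhibitor and another target, with 90 and 161 CPM at P7L, against 178 and 301 CPM at G14.5 (-0.94 ± 0.17, adjusted p = 0.028), a call lost without any 1 of the G14.5 and P7L libraries. Another target, the DNA-binding inhibitor Id1, had 28.2 and 17.1 CPM at G14.5, against 13.2 and 18.3 CPM at G0, and was not called. The sensors and co-receptors of the pathway showed no call either. The transferrin receptor gene Tfr2 had 111 and 175 CPM at G14.5, against 189 and 171 CPM at G0. The hemojuvelin gene Hfe2 had 67.8 and 71.6 CPM at G14.5, against 52 and 64 CPM at G0. The protease gene Tmprss6, whose product removes hemojuvelin, had 70 and 94.9 CPM at G14.5, against 127 and 108 CPM at G0.

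The interleukin 6 and STAT3 list had 0 calls among 7 tested genes in each of the 3 comparisons. The receptor gene Il6ra had 345 and 358 CPM at G14.5, against 234 and 238 CPM at G0 (adjusted p = 0.0779). The feedback inhibitor Socs3 had 2.1 and 1.54 CPM at G14.5, against 5.06 and 5.92 CPM at G0 (adjusted p = 0.237). Neither passed the threshold although the groups did not overlap, and the share of all genes without overlap was not counted.

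Iron handling genes changed in both directions at G14.5. Of 17 tested, 3 were higher and 2 lower than at G0, beside 3.01% higher and 1.8% lower among all genes. The ceruloplasmin gene Cp, a ferroxidase of plasma that is overlapped by Hps3 on the other strand, had 3324 and 3430 CPM at G14.5, against 674 and 913 CPM at G0 (2.1 ± 0.15, adjusted p = 0.000759). Slc39a14, an importer of iron not bound to transferrin, had 1248 and 1512 CPM at G14.5, against 665 and 671 CPM at G0 (1.04 ± 0.14, adjusted p = 0.00902, lost without the G14.5 perfusion library). The haem scavenger Hpx had 477 and 442 CPM at G14.5, against 238 and 194 CPM at G0 (1.08 ± 0.23, adjusted p = 0.0456). The Hpx call was made under 8 of 19 alternative settings and was lost, among others, without the G0 perfusion library or either G14.5 library. The haem synthesis genes Alas1 and Fech fell by 0.78 (adjusted p = 0.0337) and 0.89 (adjusted p = 0.0406), and both calls were lost without either G14.5 library or either P7L library. For Fech the call was also lost without the G0 perfusion library. The Alas1 and Fech calls were each made under 8 of 19 alternative settings. At P7L against G14.5 the list went the other way, with 1 of 17 higher (Alas1) and 5 lower (Cp, Slc39a14, Steap4, Hpx and Slc40a1), beside 1.89% higher and 2.5% lower among all genes. The Hpx call of this comparison was made under 8 of 19 alternative settings. Slc40a1, the gene of ferroportin itself, had 35.4 and 56.3 CPM at P7L, against 91.9 and 117 CPM at G14.5 (-1.20 ± 0.26, adjusted p = 0.0458). The Slc40a1 call was made under 6 of 19 alternative settings and was lost, among others, without any 1 of the G14.5 and P7L libraries. At P7L against G0 only Cp was called, beside 0.601% of all genes. It had 378 and 416 CPM at P7L, against 674 and 913 CPM at G0 (-0.99 ± 0.15, adjusted p = 0.0422), a call lost without either P7L library.

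Igfbp2 was higher at G14.5 in middle-index and low-index nuclei. It spans 72824503 to 72852474 on the plus strand of chromosome 1. In middle-index nuclei it had 370 and 327 CPM at G14.5, against 199 and 117 CPM at G0 (log2 fold change 1.17 ± 0.22, adjusted p = 0.0304). Low-index nuclei had 432 and 406 CPM at G14.5, against 159 and 174 CPM at G0 (1.35, adjusted p = 0.0369). High-index nuclei had 106 and 119 CPM at G14.5, against 138 and 115 CPM at G0 (-0.17, adjusted p = 0.775). The difference between the change in the middle and the mean change of the ends was 0.59 and was not called (adjusted p = 0.855). At P7L Igfbp2 had 297 and 310 CPM in middle-index nuclei, against 199 and 117 CPM at G0 (0.98, adjusted p = 0.102). Per nucleus the medians were 129 and 60.8 CPM (G0), 214 and 222 (G14.5) and 187 and 222 (P7L). The G14.5 call in middle-index nuclei was lost without either G14.5 library, on the authors' normalised values and without the filter on the share of nuclei with a read.

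Of 22 tested genes of the IGF, mTOR and cyclin D1 axis, Igfbp2 was the 1 call at G14.5 against G0, a share near the 4.82% of all genes. In the other comparisons 0 were called, beside 0.601% of all genes for P7L against G0 and 4.39% for P7L against G14.5. Ccnd1, overlapped on the other strand by a protein-coding gene, had 6.95 and 5.12 CPM (G0), 1.67 and 4.27 (G14.5) and 10.4 and 10.9 (P7L), and no difference was called (adjusted p = 0.344 between G14.5 and G0, 0.549 between P7L and G0, and 0.168 between P7L and G14.5). The mTOR inhibitor gene Tsc1 had 83 and 89.3 CPM at G14.5, against 173 and 149 CPM at G0, just outside the threshold (adjusted p = 0.053), and it was called without the G0 perfusion library.

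Among the cell cycle genes, Mki67 and Mcm2 were higher at G14.5 than at G0. They were the 2 called of 27 tested, beside 4.82% called among all genes, with 0 lower, and 0 were called at P7L against either stage. The median log2 fold change of the list was 1.61 at G14.5 against G0, beside 0.00 over all genes. At P7L against G0 it was 1.73, beside 0.02 over all genes, so the shift was not particular to G14.5. Taken per preparation with an offset added to each level, the medians were smaller, at 0.88 and 0.74 (G14.5) and 0.67 and 1.11 (P7L). With so few calls, the 2 called genes say little about the list. Not all members were low at G0, as the kinase gene Cdk6 had 199 and 84.1 CPM at G14.5, against 178 and 121 CPM at G0, and was not called. The proliferation marker Mki67 had 12.4 and 15 CPM at G14.5, against 1.51 and 0.155 CPM at G0 (4.73 ± 0.99, adjusted p = 0.0406). The replication helicase subunit Mcm2 had 5.75 and 0.511 CPM at G14.5, against 0.0459 and 0.00858 CPM at G0 (6.47 ± 1.13, adjusted p = 0.0232), with 6 reads in all at G0. The Mki67 call was made under 12 of 19 alternative settings and was lost, among others, without the G14.5 perfusion library. The Mcm2 call was made under 14 of 19 and was lost, among others, without the G14.5 liver tissue library. A nucleus was counted as cycling when it had reads of 3 or more of 10 cycling genes after thinning. Such nuclei were 2 of 121 (1.65%, exact 95% binomial interval 0.201% to 5.84%) and 0 of 89 (0% to 4.06%, and up to 3.37% by the limit of 3 nuclei that a count of 0 allows) at G0. At G14.5 they were 9 of 112 (8.04%, 3.74% to 14.7%) and 3 of 149 (2.01%, 0.417% to 5.77%). At P7L they were 8 of 145 (5.52%, 2.41% to 10.6%) and 3 of 148 (2.03%, 0.42% to 5.81%). The liver tissue libraries of the later stages had the larger shares, the intervals of most libraries overlap, and the shares were not tested between stages. The intervals cover counting error only.

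At G14.5, 451 genes (3.01%) were higher and 270 (1.8%) lower than at G0 in middle-index nuclei, 721 of 14974 tested (4.82%). Among the increases with a large fold were genes with low levels at G0. Vwf, the gene of von Willebrand factor and best known from endothelium, had 97.8 and 89.4 CPM at G14.5, against 0.22 and 0.352 CPM at G0 (8.36 ± 0.46, adjusted p = 0.000366). Summed endothelial markers stood at 19 and 12.2 CPM at G14.5, against 19.2 and 59.4 CPM at G0, where Kdr gave 35.7 CPM of the perfusion sum. Whether other cells contributed to the Vwf reads was not tested. Sorcs3, a sorting receptor known from neurons, had 196 and 219 CPM at G14.5, against 0.651 and 1.35 CPM at G0 (7.74 ± 0.40, adjusted p = 0.000288). Dnah11, an axonemal dynein gene overlapped by Cdca7l on the other strand, had 364 and 540 CPM at G14.5, against 2.32 and 2.34 CPM at G0. Sult4a1, a sulfotransferase relative known from brain, had 56.2 and 63.9 CPM at G14.5, against 0.0367 and 0.0515 CPM at G0, where it rests on 10 reads. These genes are far apart in the genome, with Vwf on chromosome 6, Sorcs3 on 19, Dnah11 on 12 and Sult4a1 on 15.

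Colgalt2, a collagen galactosyltransferase, had 89.1 and 94.2 CPM at G14.5, against 0.779 and 0.335 CPM at G0 (7.45 ± 0.49, adjusted p = 0.000529). Slc24a3, a sodium and calcium exchanger, had 280 and 324 CPM at G14.5, against 5.39 and 0.919 CPM at G0 (6.78 ± 0.80, adjusted p = 0.00536). The lens crystallin gene Crybb3 had 31.8 and 49.3 CPM at G14.5, against 1.79 and 0.18 CPM at G0 (6.46 ± 1.31, adjusted p = 0.0373), and its call was lost without the G0 or the G14.5 perfusion library. Of these genes, Sorcs3 and Colgalt2 were also higher at P7L than at G0, Sorcs3 with 17.7 and 17.4 CPM and Colgalt2 with 17.9 and 13.7 CPM at P7L.

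Among the decreases with a large fold at G14.5 was Abcc3, an exporter of bile acids and conjugates into blood, which had 5.67 and 5.56 CPM at G14.5, against 243 and 232 CPM at G0 (-5.40 ± 0.22, adjusted p = 8.58e-05). Mfsd2a, a transporter of lysophosphatidylcholine with docosahexaenoic acid, had 5.1 and 2.83 CPM at G14.5, against 118 and 109 CPM at G0 (-4.86 ± 0.38, adjusted p = 0.0011). The terminal complement gene C9 had 8.54 and 7.61 CPM at G14.5, against 107 and 100 CPM at G0 (-3.68 ± 0.24, adjusted p = 0.000529). Ak4, a mitochondrial adenylate kinase, had 3.91 and 4.97 CPM at G14.5, against 67.6 and 59.9 CPM at G0 (-3.87 ± 0.31, adjusted p = 0.00119). For all 4 the G14.5 libraries lay far below both G0 libraries.

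The same direction was seen for Sult2a3, a sulfotransferase with near-identical copies, which had 0.306 and 0.486 CPM at G14.5, against 85.8 and 86.1 CPM at G0 (-7.78 ± 0.44, adjusted p = 0.000366). Rgs16, a regulator of G protein signalling known to cycle with feeding, had 0.761 and 1.92 CPM at G14.5, against 50.3 and 57.4 CPM at G0 (-5.54 ± 0.50, adjusted p = 0.00199). The neurexophilin gene Nxph1 had 5.28 and 0.561 CPM at G14.5, against 115 and 77.4 CPM at G0 (-5.44 ± 0.82, adjusted p = 0.014). Nxpe2, overlapped by Nxpe4 on the other strand, had 4.09 and 2.63 CPM at G14.5, against 41.3 and 54.4 CPM at G0 (-3.93 ± 0.53, adjusted p = 0.00935), a call lost without either G14.5 library.

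**Figure D3:**
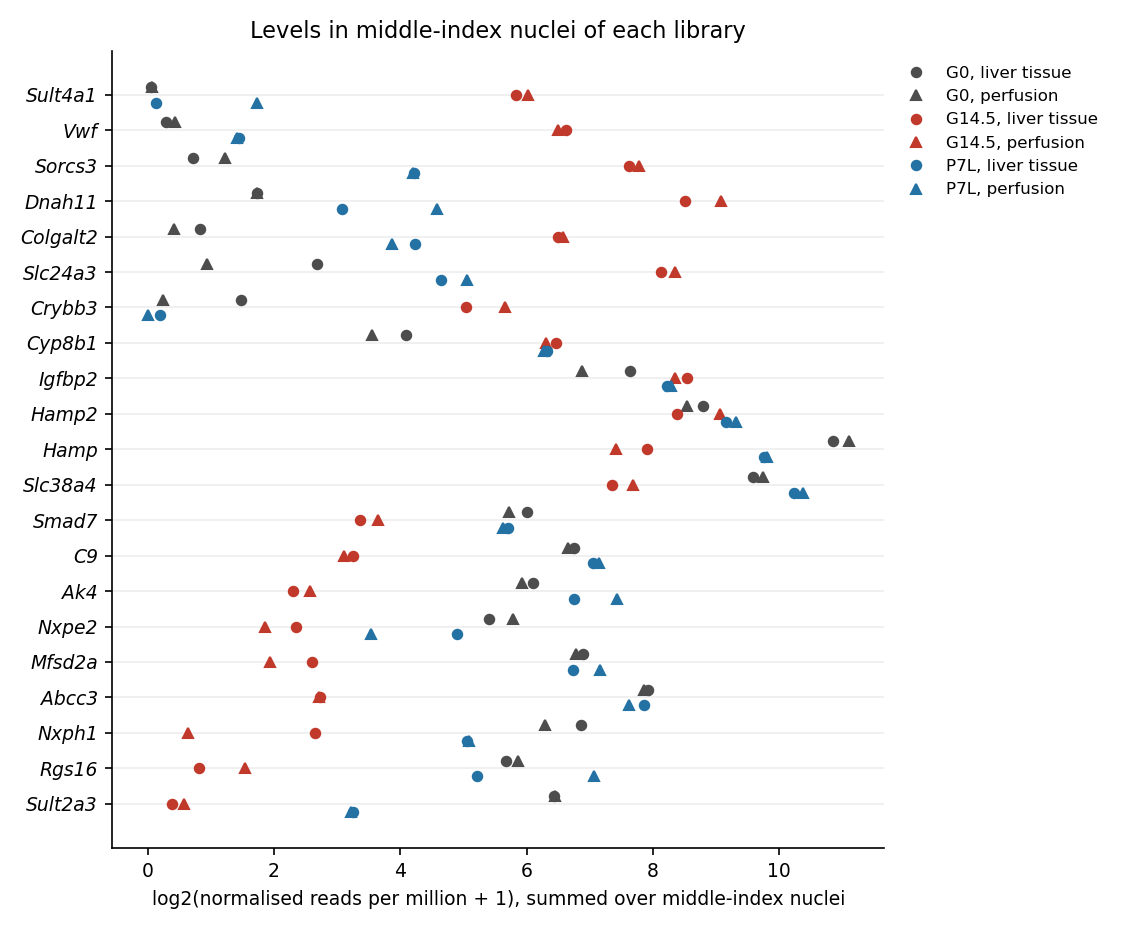
Levels of 21 genes in the middle-index nuclei of each library, as log2(CPM + 1), with 1 point per library and stages from G0 through G14.5 to P7L. Genes that were low at G0 and high at G14.5, such as Vwf with 97.8 and 89.4 CPM at G14.5, stand beside genes that were low at G14.5 only, such as Abcc3 with 5.67 and 5.56 CPM at G14.5.

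Genes of amino acid use were called in 1 direction only. In amino acid transport and catabolism 0 of 19 tested genes were higher and 7 lower (Slc38a4, Slc7a2, Prodh, Aass, Gpt2, Gpt and Mccc1), beside 3.01% higher and 1.8% lower among all genes. The median log2 fold change of the list was -0.75, beside 0.00 over all genes. Slc38a4, a sodium-coupled amino acid importer, had 162 and 205 CPM at G14.5, against 764 and 859 CPM at G0 (-2.15 ± 0.14, adjusted p = 0.000529). The cationic amino acid importer Slc7a2 had 292 and 385 CPM at G14.5, against 1264 and 1101 CPM at G0. Prodh, the first enzyme of proline breakdown, had 15.9 and 22.4 CPM at G14.5, against 153 and 116 CPM at G0. All 3 were called under every alternative run.

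In fatty acid synthesis 6 of 18 tested were higher (Pnpla3, Thrsp, Fads2, Fads1, Acacb and Elovl5) and 2 lower (the transcription factors Mlxipl and Srebf1), with a median of 0.17. Among all genes 3.01% were higher and 1.8% lower. Pnpla3, a lipid droplet hydrolase, had 884 and 1010 CPM at G14.5, against 53.1 and 38.2 CPM at G0 (4.35 ± 0.33, adjusted p = 0.000924). The desaturase gene Fads2 had 733 and 989 CPM at G14.5, against 184 and 197 CPM at G0 (2.17 ± 0.22, adjusted p = 0.00286). Beside the same shares of all genes, cholesterol synthesis had 3 of 20 higher (Fdps, Hmgcs1 and Fdft1) and 0 lower, with a median of 0.70. Fdps, the farnesyl diphosphate synthase gene, had 185 and 164 CPM at G14.5, against 29.8 and 28.2 CPM at G0 (2.58 ± 0.22, adjusted p = 0.00146).

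In bile acid synthesis 2 of 14 were higher and 0 lower, with a median of 0.17, beside 3.01% higher and 1.8% lower among all genes. Cyp8b1 rose by 2.65 ± 0.28 (adjusted p = 0.00346) from the levels given above. Cyp7a1, the rate-limiting enzyme, had 393 and 303 CPM at G14.5, against 73.1 and 97.4 CPM at G0 (1.98 ± 0.32, adjusted p = 0.0177), a call lost without either G14.5 library. In the unfolded protein response 2 of 17 were higher and 0 lower, beside the same shares of all genes. Both were genes of secreted or luminal proteins of the endoplasmic reticulum, Creld2 and Manf. Creld2 had 43.5 and 56.3 CPM at G14.5, against 4.42 and 8.32 CPM at G0 (3.02 ± 0.39, adjusted p = 0.00768). The Creld2 and Manf calls were both lost without either G14.5 library.

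Receptors for pregnancy hormones were among the most abundant of the genes called. Of 13 tested genes of prolactin and growth hormone signalling 3 were higher and 0 lower at G14.5, beside 3.01% higher and 1.8% lower among all genes. Prlr, the prolactin receptor, had 11110 and 12660 CPM at G14.5, against 1640 and 1311 CPM at G0 (3.02 ± 0.16, adjusted p = 0.000288). Ghr, the growth hormone receptor, had 27350 and 29360 CPM at G14.5, against 5918 and 6602 CPM at G0 (2.18 ± 0.15, adjusted p = 0.000649). Their feedback inhibitor Socs2 had 374 and 286 CPM at G14.5, against 92.4 and 104 CPM at G0 (1.72 ± 0.24, adjusted p = 0.00984, lost without the G14.5 liver tissue library).

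Zoned genes also changed within the middle of the index. Beside each list of this paragraph stand 3.01% higher and 1.8% lower among all genes. Of 20 central vein genes outside the index 1 was higher (Cyp7a1) and 4 lower (Cyp2c37, Cyp2a5, Cyp2c50 and Cyp2c29) at G14.5 than at G0, and of 20 portal genes 4 were higher (Tat, Alb, Apoc2 and Cdh1) and 3 lower (Pigr, Uroc1 and Etnppl). The cytochrome gene Cyp2a5 had 48.9 and 46.5 CPM at G14.5, against 211 and 225 CPM at G0 (-2.20 ± 0.22, adjusted p = 0.00285). In the Wnt list 1 of 19 was higher, the R-spondin receptor Lgr4 with 1400 and 1537 CPM at G14.5, against 594 and 511 CPM at G0 (1.41 ± 0.15, adjusted p = 0.00412). The 1 lower Wnt gene was the receptor-degrading ligase Znrf3 (-0.75, adjusted p = 0.0453), whose call was lost without any 1 of the libraries other than the G0 liver tissue library. In the hypoxia list 1 of 17 was higher (Hif1a) and 2 lower (Bnip3 and Epas1), all lost without either G14.5 library. The Hif1a call was also lost without the G0 perfusion or either P7L library. With so few genes, 1 or 2 calls each way in the Wnt and hypoxia lists say little about these lists. Immediate early and heat shock genes had 0 higher and 2 lower of 9 tested (Egr1 and Ier2).

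The number of calls at G14.5 against G0 depended on single libraries. It was 241 or 258 with either the liver tissue or the perfusion library of G14.5 left out, 1301 without the G0 liver tissue library and 1119 without the G0 perfusion library. With library size alone as the scaling, the split was 430 higher and 410 lower, and the median of all genes moved by -0.09.

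At P7L, 42 genes (0.28%) were higher and 48 (0.321%) lower than at G0 in middle-index nuclei, 90 of 14974 (0.601%). An unadjusted p under 0.05 in the edgeR test was reached by 2464 genes here and by 2623 for P7L against G14.5. The small number of calls thus does not show that P7L was nearer to G0. Among the increases was that of Chrna4, a nicotinic acetylcholine receptor subunit, with 69.4 and 122 CPM at P7L, against 4.81 and 3.05 CPM at G0 (4.58 ± 0.44, adjusted p = 0.0134). Cyp2d40, a cytochrome of a family of similar genes, had 71.6 and 65.2 CPM at P7L, against 9.22 and 7.64 CPM at G0 (3.02 ± 0.27, adjusted p = 0.0127). Cyp8b1 rose by 2.56 ± 0.28 (adjusted p = 0.0168, lost without the P7L perfusion library). Slc20a1, a phosphate importer, had 51.4 and 61.9 CPM at P7L, against 6.66 and 8.56 CPM at G0 (2.90 ± 0.37, adjusted p = 0.0312). The Slc20a1 call was lost without either P7L library, as were those of Tgfbr2, a receptor of transforming growth factor beta (2.74, adjusted p = 0.0286), the calpain gene Capn11 (4.16, adjusted p = 0.0312), the haematopoietic adaptor gene Hcls1 (3.30, adjusted p = 0.0422) and the phosphodiesterase gene Pde6c (2.44, adjusted p = 0.0422). For Hcls1 the call was also lost without either G14.5 library. Summed lymphocyte markers stood at 2.98 and 1.63 CPM at P7L, against 4.04 and 5.57 CPM at G0. Summed macrophage markers stood at 14.9 and 7.65 CPM at P7L, against 17.6 and 6.19 CPM at G0. Whether other cells contributed to the Hcls1 reads was not tested.

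Decreases at P7L included genes of prolactin and growth hormone signalling. Of 13 tested genes of prolactin and growth hormone signalling 0 were higher and 3 lower than at G0, beside 0.28% higher and 0.321% lower among all genes. Socs2 had 15.1 and 10.1 CPM at P7L, against 92.4 and 104 CPM at G0 (-3.00 ± 0.25, adjusted p = 0.0104). Igf1, the growth factor made by liver under growth hormone, had 406 and 351 CPM at P7L, against 1692 and 1497 CPM at G0 (-2.07 ± 0.19, adjusted p = 0.0127). Prlr had 629 and 539 CPM at P7L, against 1640 and 1311 CPM at G0 (-1.33 ± 0.15, adjusted p = 0.0183, lost without the P7L perfusion library). The cytochrome gene Cyp2c69, known as female-biased in mouse liver and with near-identical relatives, had 29.1 and 27.5 CPM at P7L, against 415 and 254 CPM at G0 (-3.52 ± 0.23, adjusted p = 0.00414).

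Further decreases were those of Wsb1, a SOCS box ligase subunit, with 147 and 150 CPM at P7L, against 955 and 838 CPM at G0 (-2.59 ± 0.16, adjusted p = 0.00414), and of the beta-actin gene Actb, with 120 and 95.4 CPM at P7L, against 657 and 599 CPM at G0 (-2.55 ± 0.17, adjusted p = 0.00414). Egr1, an immediate early gene, had 8.11 and 26.6 CPM at P7L, against 154 and 248 CPM at G0 (-3.68 ± 0.38, adjusted p = 0.015). Egr1 is itself a member of the summed immediate early and heat shock genes given above and their largest member at G0. The lower sums at P7L are therefore not separate from its fall. The part of these genes in the other differences from G0 was not tested. Also lower were Sult2a3 (-3.35, adjusted p = 0.0164), Cyp2b13 (-2.45, adjusted p = 0.0131) and the metalloproteinase gene Adamts6 (-2.35, adjusted p = 0.021). The Sult2a3 call was lost without either P7L library, that of Cyp2b13 without the P7L perfusion library and that of Adamts6 without the P7L liver tissue library.

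In cholesterol synthesis 2 of 20 were higher at P7L than at G0, among them Fdps, and 1 was lower (Insig1, which retains the SREBP transcription factors). Among all genes 0.28% were higher and 0.321% lower. Insig1 had 417 and 508 CPM at P7L, against 829 and 1261 CPM at G0 (-1.16 ± 0.15, adjusted p = 0.0343). The calls of Fdps and Insig1 were lost without either P7L library. No gene was called at P7L against G0 in the lists for amino acids (19 tested), fatty acid synthesis (18), the unfolded protein response (17) or hypoxia (17), which with 0.601% of all genes called says little about these lists. The total of 90 calls fell to 29 with the liver tissue library of P7L left out and to 21 with its perfusion library left out, and was 582 without the G0 liver tissue library and 304 without the G0 perfusion library. On the authors' normalised values with a pseudocount of 1 it was 0.

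P7L against G14.5 gave 283 higher (1.89%) and 375 lower genes (2.5%), 658 of 14974 (4.39%). This comparison shares its G14.5 libraries with G14.5 against G0, so a gene low or high in those libraries is drawn apart in both. Serpina6, the gene of the corticosteroid carrier of plasma, had 88.5 and 109 CPM at P7L, against 3907 and 3546 CPM at G14.5 (-5.24 ± 0.18, adjusted p = 6.29e-05). Adcy1, an adenylyl cyclase known from brain, had 1.23 and 1.3 CPM at P7L, against 56.5 and 58 CPM at G14.5 (-5.50 ± 0.42, adjusted p = 0.000983). Clec2h, a C-type lectin gene, had 0.0138 and 1.44 CPM at P7L, against 29.4 and 110 CPM at G14.5 (-7.96 ± 1.04, adjusted p = 0.00818). Mme, the membrane peptidase neprilysin, had 75.9 and 50.4 CPM at P7L, against 1.26 and 1.46 CPM at G14.5 (5.53 ± 0.44, adjusted p = 0.00115). Pfkfb2, a switch enzyme of glycolysis overlapped by Yod1 on the other strand, had 82.6 and 41.7 CPM at P7L, against 2.27 and 4.2 CPM at G14.5 (4.17 ± 0.54, adjusted p = 0.00818).

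By lists, amino acid genes had 8 of 19 higher and 0 lower at P7L than at G14.5, and prolactin and growth hormone genes 0 higher and 6 of 13 lower (Prlr, Socs2, Ghr, Igf1, Cux2 and Cish). Beside each list of this paragraph stand 1.89% higher and 2.5% lower among all genes. Slc38a4 had 1200 and 1323 CPM at P7L, against 162 and 205 CPM at G14.5 (2.79 ± 0.15, adjusted p = 0.000244). Prlr had 629 and 539 CPM at P7L, against 11110 and 12660 CPM at G14.5 (-4.35 ± 0.16, adjusted p = 7.27e-05). Ghr had 5429 and 4167 CPM at P7L, against 27350 and 29360 CPM at G14.5 (-2.56 ± 0.15, adjusted p = 0.000435). In fatty acid synthesis the calls split, with 3 of 18 higher (Scd1, Me1 and Elovl6) and 5 lower (Pnpla3, Fads2, Fads1, Elovl5 and Thrsp). In the unfolded protein response 0 of 17 were higher and 4 lower. Among portal genes outside the index 4 of 20 were higher, the urea cycle genes Ass1, Asl and Cps1 together with Etnppl, and 2 were lower (G6pc and Hsd17b6). Ass1 had 1424 and 1267 CPM at P7L, against 477 and 646 CPM at G14.5 (1.27 ± 0.18, adjusted p = 0.0106), a call lost without the G14.5 or the P7L liver tissue library.

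The total of 658 calls changed to 193 without the G14.5 liver tissue library, 232 without the G14.5 perfusion library, 238 with the liver tissue library of P7L left out and 211 with its perfusion library left out. Without the G0 liver tissue library there were 1425, and without the G0 perfusion library 1483. With library size alone as the scaling the split turned to 421 higher and 266 lower, and the median of all genes moved by 0.20.

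Whether the stage change was particular to the middle of the index was tested directly, as the change in middle-index nuclei minus the mean change of low- and high-index nuclei, over 14970 genes. No gene was called in any of the 3 comparisons (0% each, edgeR). An unadjusted p under 0.05 was reached by 870 genes in the test of G14.5 against G0, by 677 in that of P7L against G0 and by 258 in that of P7L against G14.5. DESeq2 called 174, 75 and 7 genes in these comparisons and limma-voom 0 in each. A stage change particular to the middle was not detectable for any gene with 2 libraries per stage under the main test, which does not show that the changes were equal.

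For Hamp the change at G14.5 against G0 was -3.57 in low-index, -3.32 in middle-index and -5.19 in high-index nuclei, each called. In high-index nuclei the level was 56.6 and 57.3 CPM for G14.5 and 238 and 228 CPM for P7L, against 1521 and 2762 CPM at G0. The P7L change in high-index nuclei, -3.16, was called (adjusted p = 0.00651), while the -1.21 in middle-index and the -1.45 in low-index nuclei were not. The middle differed from the mean of the ends by 1.04 ± 0.24 at G14.5 against G0 (unadjusted p = 0.00119, adjusted p = 0.722) and by 1.09 ± 0.24 at P7L against G0 (unadjusted p = 0.000812, adjusted p = 1). Set against high-index nuclei alone, a comparison chosen after the data were seen, the differences were 1.83 ± 0.28 (adjusted p = 0.187) and 1.94 ± 0.28 (adjusted p = 0.317). Both comparisons share the G0 libraries.

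Aspg and Gm13481, chosen after their values were seen, were the genes called when the middle was set against 1 end at a time, both for G14.5 against G0. Aspg, an asparaginase gene, had 44.2 and 94.9 CPM at G14.5, against 382 and 231 CPM at G0 in middle-index nuclei. In high-index nuclei it had 1.78 and 2.48 CPM at G14.5, against 135 and 84.5 CPM at G0. Its change in the middle was smaller by 3.49 ± 0.39 than in high-index nuclei (adjusted p = 0.0215). Gm13481, an annotated gene without a known role, had 246 and 240 CPM at G14.5, against 16.9 and 12.7 CPM at G0 in middle-index nuclei. In low-index nuclei it had 181 and 134 CPM at G14.5, against 0.796 and 0.672 CPM at G0, and its rise in the middle was smaller by 3.70 on the log2 scale (-3.70 ± 0.37, adjusted p = 0.00871).

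Genes with the smallest unadjusted p in the main test of the difference showed 2 kinds of pattern. Kcnk5, a potassium channel, had 63.4 and 93.4 CPM at G14.5, against 41 and 46.7 CPM at G0 in middle-index nuclei, while low-index nuclei had 134 and 141 CPM already at G0. At P7L the middle had 176 and 152 CPM. Its change at P7L against G0 was 1.92 in the middle (adjusted p = 0.0355, lost without either P7L library), and the difference from the ends was 1.33 ± 0.25 (unadjusted p = 0.000199, adjusted p = 0.794). Tmem260, an O-mannosyltransferase gene, had 190 and 204 CPM at G14.5 in middle-index nuclei, against 72 and 65.5 CPM at G0, while low-index nuclei had 184 and 204 CPM at G0. For Ildr2, an immunoglobulin-like membrane protein gene, the fall at G14.5 was -3.22 in the middle, -4.80 in low-index and -5.50 in high-index nuclei (difference 2.04 ± 0.44, adjusted p = 0.722). Dnah11 had a difference at P7L against G0 of 2.48 (unadjusted p = 0.000107), also not called after adjustment. Slc20a1, which was not among the genes taken by smallest p, had a difference of 1.71 there (unadjusted p = 0.00181), not called either. Tmem140 went the other way, with 268 and 194 CPM at G14.5 in middle-index nuclei, against 165 and 166 CPM at G0, and a log2 change of 0.46 there beside 2.04 in low-index and 2.62 in high-index nuclei.

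**Figure D4:**
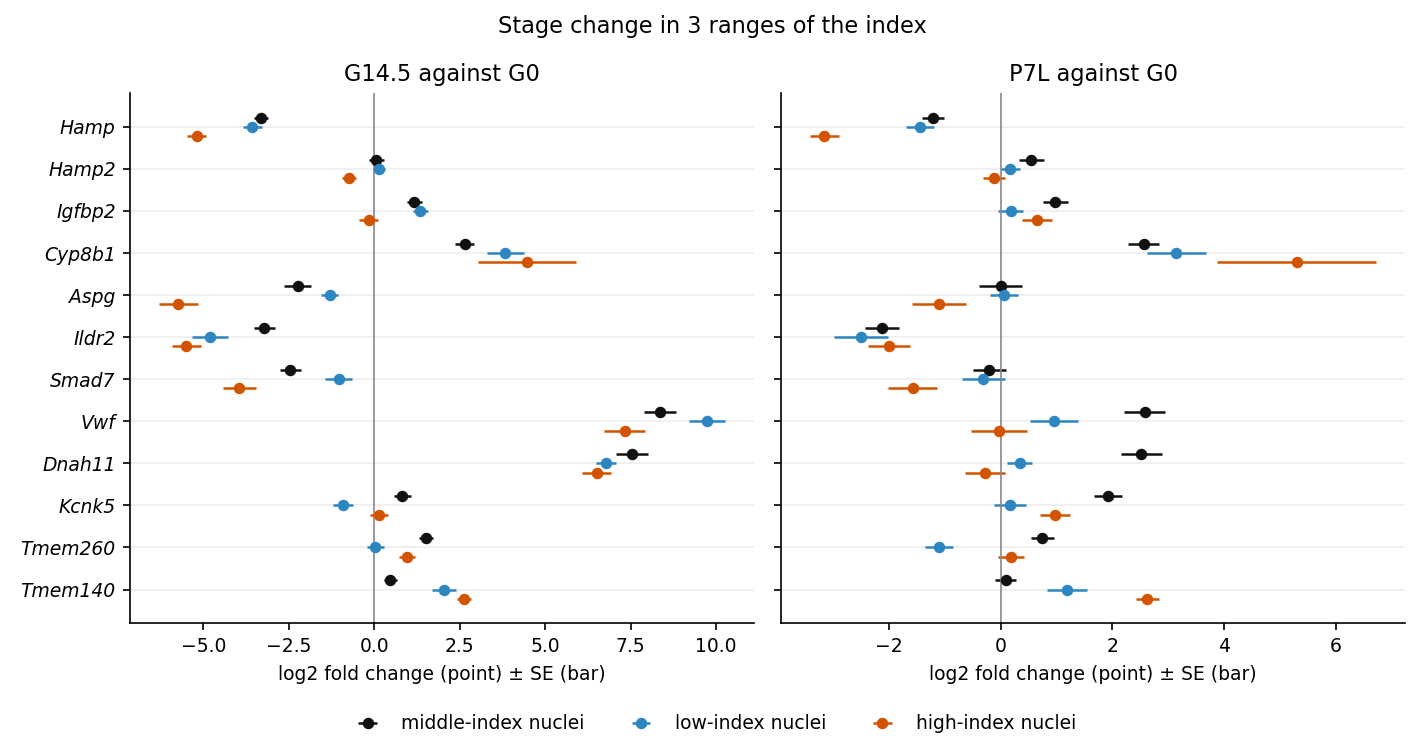
Log2 fold change with its standard error in middle-, low- and high-index nuclei for 12 genes, for G14.5 against G0 and P7L against G0. Hamp fell by 3.32 in middle-index and by 5.19 in high-index nuclei at G14.5, and none of the differences between the middle and the mean of the ends was called.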

How the data were processed

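Counts of reads per gene in single hepatocyte nuclei were used as deposited (40824 genes, 1567 nuclei). Per the submitters' processing notes, the authors' tools included featureCounts 1.5.3, HISAT2 2.1.0 and Trimmomatic 0.39, with GRCm38 (mm10) as the build. Molecular identifiers and the use of strand are not given in the sources used here. The authors' second deposited table holds length-scaled expression, a signal that sums to 100000 per nucleus when Alb, Apoa2 and Fabp1 are left out, and served for alternatives only.

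Reads were summed over the middle-index nuclei of each library, since nuclei are not replicates. Depth was 105544958 to 171632405 reads per sum. edgeR 4.0.16 (R 4.3.3) fitted a quasi-likelihood model with TMM scaling and terms for stage and preparation over all 6 sums, with 2 residual degrees of freedom, on 14974 genes that passed filterByExpr and had a read in 5% of members of 2 libraries. Tests were two-sided at a Benjamini-Hochberg adjusted p under 0.05. The difference in stage change between the middle and the ends was fitted on 18 sums (6 libraries, 3 index ranges) with library as a block. The procedure was also run on simulated counts with planted changes and no effect of preparation. Its outcome is not reported here, and it cannot show how the procedure behaves on these libraries. Gene positions are from GENCODE M21.

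Liver tissue and perfusion libraries (replicates 1 and 2) were blocked by the term for preparation. Deviations of same-numbered libraries correlated at 0.01 to 0.08 between stages. These values cannot show whether libraries share an animal, which the labels do not give. Doublets were not removed.

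Genes named are up to 8 higher and 8 lower per comparison by fold, among called genes with at least 20 CPM and reads in 20% of nuclei in both libraries of the higher stage, up to 4 per pathway list by p, the midlobular genes, and the leading genes along the index and in the test of the difference. Hpx, Slc40a1, Ass1, Cyp2a5, Id1, Tfr2, Hfe2, Tmprss6, Aspg and Gm13481 fall outside this rule and were chosen after their values were seen. Not every gene taken by the rule is reported here. The members and lists were chosen with earlier results of these data known. The alternatives were other scalings, filters, tools, members, depths and units and leaving out each library. For named calls mostly the losses on leaving out a library are given, and some calls were also lost under other settings.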

Additional observations from a re-analysis of the deposited data

How the results depend on the processing

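The counts of called genes moved by over 1.5 times under several settings, while no named gene reversed its direction in a call. Over 270 named values and their 5130 alternative values, 4543 stayed on the same side of the threshold, 407 were weaker, 180 stronger and 0 reversed. With filterByExpr as the only filter the counts for G14.5 against G0, P7L against G0 and P7L against G14.5 were 461, 22 and 385. DESeq2 gave 2403, 1298 and 1693. Without the replicate block, that is without the term for preparation, P7L against G0 gave 155, and the other comparisons gave 898 and 746. With each nucleus thinned to 250000 reads P7L against G0 gave 209. Tests on the length-scaled table found 355, 0 and 323 at a pseudocount of 1, and 7 for P7L against G0 at 0.1. A narrower middle of the index, which sums fewer nuclei, gave 371, 22 and 341. Leaving out each library in turn gave 241 to 1301, 21 to 582 and 193 to 1483. With library size alone, P7L against G0 had 56 higher and 36 lower genes, and the median of all genes was 0.12, against 0.02. Where no construction of the setting shows it, the cause was not tested.

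Over all 20 settings, 139 genes were called in each for G14.5 against G0 (88 higher, 51 lower), 0 for P7L against G0 and 119 for P7L against G14.5 (43 higher, 76 lower). For the difference between the middle and the ends, counts of 174, 75 and 7 were given by DESeq2, and 1 each for G14.5 against G0 by the low-index or the high-index nuclei as the only end. Leaving out 1 library gave 0 to 1 for P7L against G0, the 1 without the P7L liver tissue library, and the fit without the replicate block gave 0 in each comparison. Hamp2 was above both ends in 2 libraries with Cyp2e1 out of the index, in 3 with thinned nuclei and in 3 with an index from the authors' values, against 1. With 2 or more cycling genes the shares of middle-index nuclei were 5.62% (G0 perfusion), 22.3% and 10.1% (G14.5) and 14.48% and 8.78% (P7L). Ranks of nuclei with few index reads and the 2 libraries per stage limit what could be detected.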
